A study of Mus musculus with 6 samples.

Results

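The proteasome genes are the rows of the deposited expression table whose symbol is Psma, Psmb, Psmc, Psmd, Psme, Psmf or Psmg followed by a digit, without the immunoproteasome subunits Psmb8, Psmb9 and Psmb10. This rule finds 47 of 21900 genes, and no measured value entered it. RNA was sequenced from inguinal white adipose tissue (a fat depot under the skin of the groin) of C57BL/6 mice aged 2 months that were kept on chow at 22 °C and then spent 7 days at 4 °C. The 3 control samples carry the genotype Foxp4fl/fl, in which both copies of the forkhead factor gene Foxp4 are floxed. The 3 knockout samples are labelled Foxp4AdipoQdelta/delta, a deletion by a Cre recombinase driven by Adipoq, the adiponectin gene, whose promoter works in mature adipocytes; the other cells of the tissue keep Foxp4. All 6 samples were cold-exposed, the labels name no Cre in the controls, and the effects of the Cre and of the deletion cannot be told apart. The labels do not say if a sample is from 1 mouse or several, and the p-values measure the spread between these samples only.

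The proteasome is the large protease that degrades ubiquitin-tagged proteins. Its barrel-shaped 20S core is built of outer alpha rings, which gate the entry, and inner beta rings, which hold the proteolytic sites. The 19S regulatory particle on the end of the barrel recognises the ubiquitin chain with its receptors, removes it, and unfolds the protein with the ATPases of its base. In thermogenic fat, cold raises the demand on protein quality control, and the transcription factor Nfe2l1 is known to support proteasome genes in brown adipocytes.

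Foxp4 stood at 4.80 ± 0.89 FPKM (fragments per kilobase of exon, scaled to library size; SD, n = 3) among controls, against 1.76 ± 0.15 FPKM among knockouts. The libraries held 13180594 to 15998348 recovered reads. The adipocyte genes Adipoq and Fabp4 were abundant in every library, with Adipoq means of 1212 and 872 FPKM, so the tissue label fits its defining markers. The 6 epithelial markers were near 0, with sums of 0.165 to 1.26 FPKM, and the 9 lymph node markers summed to 5.96 to 18.7 FPKM. The 10 skeletal muscle markers summed to 17.1 to 70.7 FPKM in controls and to 21.7, 103 and 333 FPKM in knockouts 1, 2 and 3. The 10 macrophage markers summed to 599 to 806 FPKM in controls and 382 to 494 FPKM in knockouts. All 10 were lower in every knockout, as were 22.7% of the 10787 genes tested. The 7 progenitor and fibroblast markers summed to 334, 378 and 690 FPKM in controls 1, 2 and 3, and to 288 to 346 FPKM in knockouts. Control 3 thus stood apart in progenitor markers and knockout 3 in muscle markers. In RNA of whole tissue, fewer cells of a type and less RNA per cell cannot be told apart.

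The core subunit gene Psmb5 had the largest difference among the proteasome genes, at 37.8 ± 2.96 FPKM in the controls against 52.5 ± 2.24 FPKM in the knockouts (SD, n = 3). Of the 47 genes, 43 averaged 1 FPKM or more in controls or in knockouts and were tested together with all other genes, 10787 in all. None of the 43 passed an adjusted p of 0.05 in limma or with voom on recovered reads, a threshold that 0.00927% of all genes tested passed in limma. The deleted gene Foxp4 did not pass it in limma either (log2 fold change -1.06, adjusted p = 0.070). At an unadjusted p of 0.05, 5 of the 43 were higher in knockouts (Psmb5, Psmb7, Psma1, Psmc4 and Psmd12) and 0 were lower, or 11.6% and 0%. Among all genes tested 6.98% were higher and 17.1% lower by the same rule. All 3 knockouts lay above all 3 controls in 11 of the 43 (25.6%), against 8.48% of all genes tested, and below them in 0, against 22.7%. A total of 30 had a positive log2 fold change and 13 a negative one, where 34.0% of all genes tested were positive. The median log2 fold change of the 43 was 0.066, beside -0.082 over all genes tested, both on the log2(FPKM + 1) scale. The fitted values ran from -0.15 for Psmf1 to 0.46 for Psmb5.

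**Figure D1:**
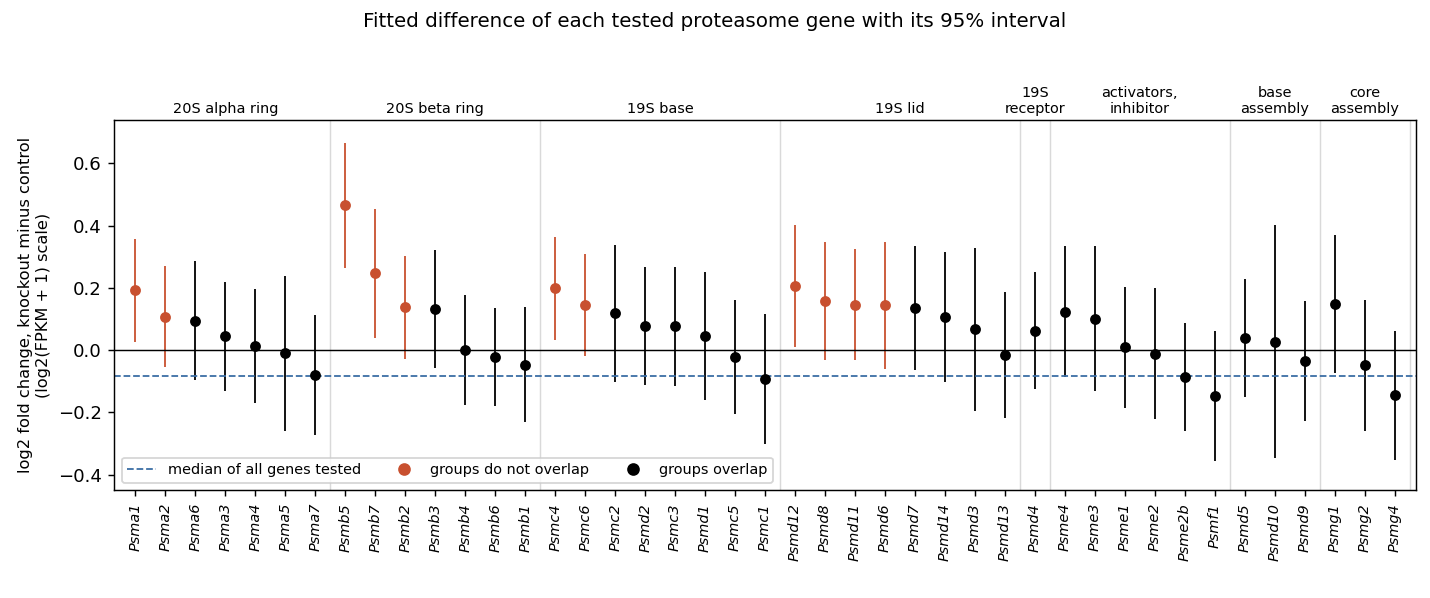
Fitted log2 fold change (knockout minus control, log2(FPKM + 1) scale, y axis) of each of the 43 tested proteasome genes with its 95% interval from limma, grouped by part of the complex. Red marks the 11 genes whose groups do not overlap, and the dashed line is the median of all genes tested, -0.082. Psmb5 has the highest value, 0.46, with an interval from 0.26 to 0.67, and no interval lies wholly below 0.

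These counts depend on single libraries and on scaling. The number of members higher at that unadjusted p was 1, Psmb5, without control 2, control 3 or knockout 2, and 2, Psmb5 and Psmb7, without knockout 1 or knockout 3. These are 2.33% and 4.65% of the 43. Among all genes 6.31% were higher by that rule without control 2, 8.33% without control 3 and 3.73% without knockout 2. The shares of all genes were 4.84% without knockout 1 and 7.29% without knockout 3. The share of members was below that of all genes in each of these 5 fits. Without control 1 it was above that of all genes, with 6 of the 43 members higher against 553 of 10834 genes. Psmb5 was the member with the lowest adjusted p in all 13 alternative fits. Under upper-quartile scaling the count was 13, or 30.2% of the 43, against 12.0% of all genes. Under median-of-ratios scaling the count was 14, or 32.6% of the 43, against 13.0% of all genes. Then 41 of the 43 had a positive value, where 49.8% of all genes were positive. A further count, of members apart and higher, was 16 (37.2%), against 16.5% of all genes. That scaling turned the split of all genes at an unadjusted p of 0.05 from 753 higher and 1848 lower to 1404 higher and 1001 lower. The member median was then 0.16 and that of all genes -0.0011. Control 3 held the lowest control value in 24 of the 43 genes, and in 36 after that scaling. That scaling divides every gene of control 3 by 1.09, against 1.02 in control 1 and 0.995 in control 2. The rise to 36 is thus not particular to these genes, and the count was not made over all genes. Without control 3 the member median was 0.044 against -0.051 over all genes. Then 11 members (25.6%) lay apart and higher, against 14.9% of all genes, and 4 (9.30%) apart and lower, against 27.2%. Knockout 3 held the highest knockout value in 19 of the 43, a count also not made over all genes. Without knockout 3, 13 members (30.2%) lay apart and higher, against 14.5% of all genes, and 1 (2.33%) apart and lower, against 27.5%.

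Levels of these genes were steady within a group. The median coefficient of variation among controls was 6.14% for the 39 proteasome genes averaging 10 FPKM or more and 9.50% for the 3615 tested genes of that level, and among knockouts 4.26% and 7.07%. Psmb6 was steady in both groups, at 0.96% in controls and 1.30% in knockouts. Psmd10 varied most, at 21.2% in controls and 13.7% in knockouts. In 42 of the 47 genes every library held at least 100 recovered reads. The exceptions were Psmg4, tested on 76 to 106 reads, and the 4 genes below the filter, Psma8, Psmb11, Psmg3 and Psmc3ip.

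**Figure D2:**
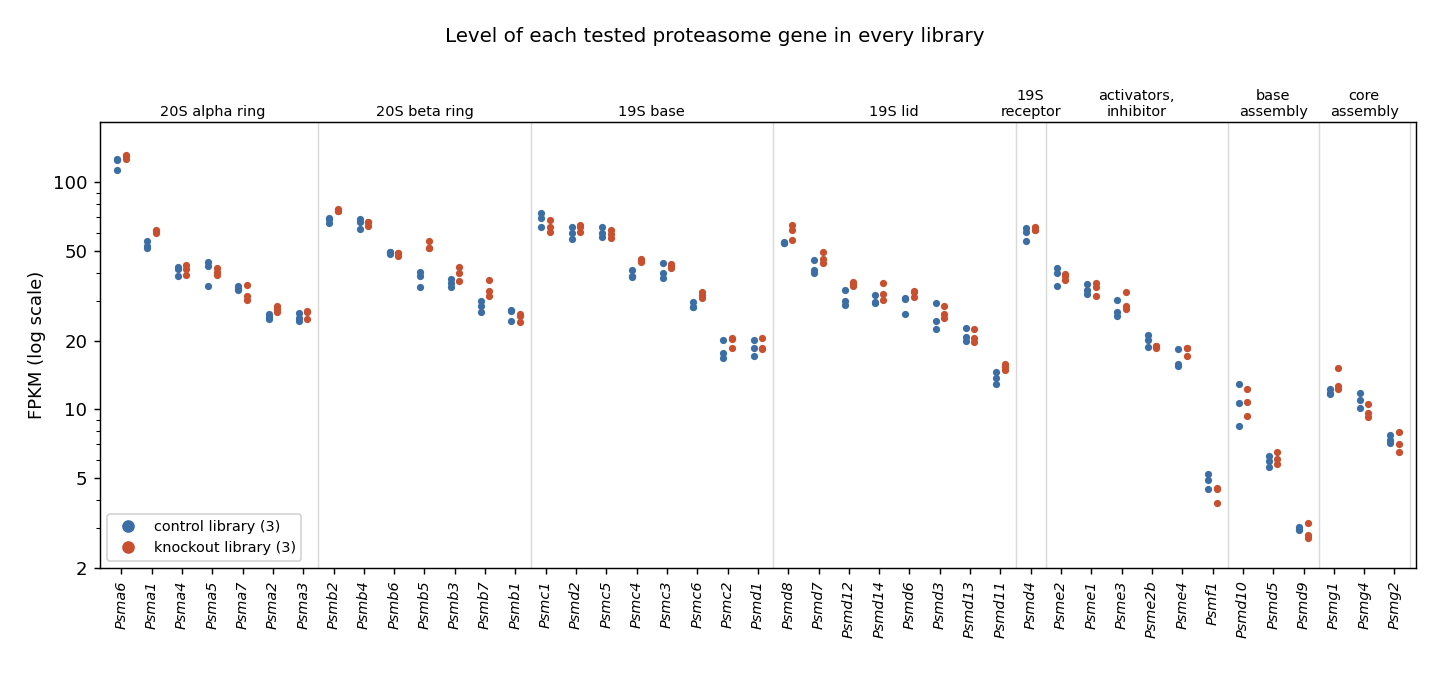
FPKM (log scale, y axis) of each of the 43 tested proteasome genes in the 3 control (blue) and 3 knockout (red) libraries, grouped by part of the complex and ordered by mean level within a part. Psma6 is highest at a mean of 126 FPKM over the 6 libraries, and the assembly chaperone Psmd9 is lowest at 2.93 FPKM.

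The parts of the complex stood at different levels per length. The 14 tested core genes ran from 25.9 FPKM (Psmb1) to 126 FPKM (Psma6) as means over the 6 libraries, with a median of 40.9 FPKM, although each core subunit is built into the particle in equal number. The 17 genes of the 19S particle ran from 14.6 FPKM (Psmd11) to 66.4 FPKM (Psmc1), with a median of 33.2 FPKM. The 6 tested assembly chaperones, which build the particle and then leave it, had a median of 8.83 FPKM, below every core and 19S gene. These levels divide by the merged length of all annotated exons, so a gene with long or rarely used exons reads low. The summed FPKM of the 19S genes was 0.980 ± 0.029 times that of the core genes in controls and 0.970 ± 0.019 times in knockouts (SD, n = 3; exact permutation p = 0.60, two-sided).

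**Figure D3:**
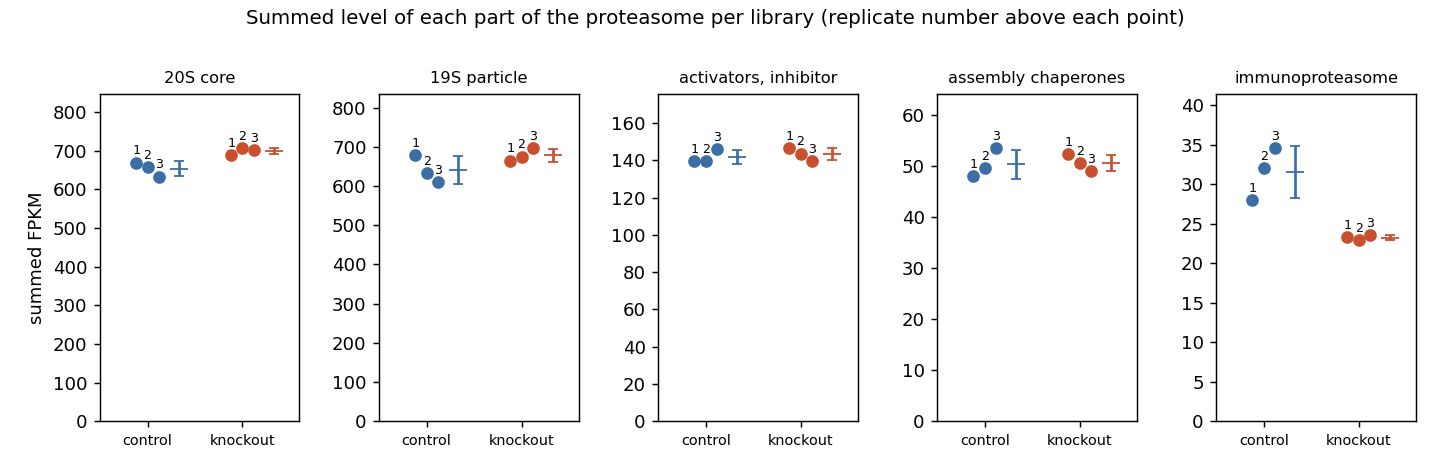
Summed FPKM (y axis, from 0) of the genes in each part per library, with the replicate number above each point and the group mean ± SD (n = 3) beside the points. The core sum lies at 633 to 669.5 in controls and 690 to 707 in knockouts without overlap, the 19S, activator and assembly sums overlap, and the immunoproteasome sum is lower in every knockout.

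Nfe2l1 is known to bind antioxidant response elements. The core of that element, TGACNNNGC, was searched on both strands in the 250 bases before each RefSeq start site (build GRCm38.p6). A promoter was found for 39 of the 47 genes. The genes without a promoter, which were not searched, were Psma8, Psmb1, Psmb2, Psmb7, Psmc3, Psmd3, Psmd7 and Psmg2. Of the 36 tested genes with a promoter, 5 (13.9%) held the motif, and so did 13.9% of the 8601 tested genes of the table. The 5 stretches are shown because they include Psmb5, which had the largest fitted difference, and Psmb6, a catalytic neighbour whose groups overlapped. Capitals mark the motif, or its reverse complement in Psmd12 and Psmc6, and each sequence is written 5′ to 3′ on the strand of the gene.
Psmb5 (chr14:54618014-54618062, minus strand): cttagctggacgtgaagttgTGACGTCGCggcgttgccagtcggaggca
Psmb6 (chr11:70525328-70525356, plus strand): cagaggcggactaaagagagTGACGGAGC
Psmd9 (chr5:123228139-123228187, plus strand): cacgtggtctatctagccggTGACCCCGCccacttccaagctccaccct
Psmc6 (chr14:45329577-45329625, plus strand): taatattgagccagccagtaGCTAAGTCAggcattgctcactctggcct
Psmd12 (chr11:107479278-107479309, plus strand): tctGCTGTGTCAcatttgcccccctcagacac
The match begins 47 bases before the start site in Psmb5, 31 in Psmd9 and 9 in Psmb6, and lies farther out, at 227 and 247 bases, in Psmc6 and Psmd12. Of these genes Psmb5, Psmc6 and Psmd12 were higher in every knockout, and Psmb6 and Psmd9 had overlapping groups. Of the 43 tested members 25.6% were higher in every knockout, and of all genes tested 8.48%. Whether the motif bears on these values was not tested. A match is a description of these letters only.

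The alpha rings form the outer walls of the core. Of the 8 alpha genes 7 were tested, 5 positive and 2 negative, with a median log2 fold change of 0.044. Psma1 stood at 54.9, 51.6 and 52.5 FPKM in the controls against 60.8, 61.9 and 59.5 FPKM in the knockouts. Every knockout lay above every control, and the log2 fold change was 0.19 (SE 0.070, unadjusted p = 0.028, adjusted p = 0.16 in limma). Psma2 stood at 25.5, 26.3 and 25.1 FPKM in the controls against 26.9, 28.6 and 27.5 FPKM in the knockouts, also without overlap, with a log2 fold change of 0.11 (SE 0.069, adjusted p = 0.36 in limma). Psma5 had nearly equal means of 40.8 and 40.3 FPKM: its controls were at 44.8, 42.8 and 34.9 FPKM, so that the lowest of all 6 values was control 3, and its knockouts at 40.2, 41.7 and 39.0 FPKM. Psma3, Psma4, Psma6 and Psma7 overlapped between groups, with values from -0.079 (Psma7) to 0.095 (Psma6). Psma8, an alpha subunit of the testis, had 2 to 9 reads per library and was not tested.

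The beta rings carry the proteolytic sites, in Psmb5 (chymotrypsin-like), Psmb6 (caspase-like) and Psmb7 (trypsin-like). Of the 8 beta genes 7 were tested, 5 positive and 2 negative, with a median log2 fold change of 0.13. Psmb5 (chromosome 14 of mm10) had levels of 34.6, 38.6 and 40.4 FPKM in the controls against 51.2, 51.3 and 55.1 FPKM in the knockouts. The lowest knockout lay well above the highest control, and the knockout mean was 38.8% higher, on 438 to 585 reads per control and 612 to 750 per knockout library. Its log2 fold change was 0.46 (SE 0.085, 95% interval 0.26 to 0.67, unadjusted p = 0.00089, adjusted p = 0.077 in limma), and the adjusted p lay between 0.056 and 0.29 over 13 alternatives. The fitted value in those alternatives ran from 0.40 without control 1 to 0.56 under median-of-ratios scaling.

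Psmb7 stood at 29.9, 28.5 and 26.7 FPKM in the controls against 31.6, 37.0 and 33.1 FPKM in the knockouts. Its groups did not overlap, and its log2 fold change was 0.25 (SE 0.088, unadjusted p = 0.026, adjusted p = 0.16 in limma). The gene overlaps Nek6 on the opposite strand, so reads of the pair may not have been kept apart. The same holds for Psmc3 with Slc39a13, Psmd1 with Htr2b, Psmd9 with Hpd and Psme1 with Emc9, since the strand setting of the counting is unknown. Psmb6 stood at 49.2, 49.5 and 48.6 FPKM in the controls against 48.7, 48.7 and 47.6 FPKM in the knockouts, with a log2 fold change of -0.02 (95% interval -0.18 to 0.13). The proteolytic subunit genes thus differed in their values within the same libraries. The ratio of Psmb5 to Psmb6 was 0.771 ± 0.065 in controls and 1.09 ± 0.061 in knockouts (SD, n = 3), without overlap. The ratio of Psmb7 to Psmb6 was 0.578 ± 0.029 and 0.702 ± 0.055, also without overlap. Each gave an exact permutation p of 0.10 (two-sided), the smallest that 3 against 3 samples allow, and 0.13 after adjustment over the 8 ratios computed. Psmb5, Psmb6 and Psmb7 have annotated pseudogene copies in the genome, with which reads could be shared.

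The other beta subunits are structural. Psmb2 had means of 68.4 and 75.3 FPKM without overlap, Psmb3 had 36.1 and 39.7 FPKM and Psmb1 had 26.3 and 25.4 FPKM, both with overlap. Psmb4 was the flattest of the beta genes: it stood at 68.8, 66.6 and 62.5 FPKM in the controls against 66.9, 64.1 and 67.0 FPKM in the knockouts. Psmb11, the beta subunit of the thymus, lies 3.41 kb from Psmb5 on chromosome 14 and had 0 to 2 reads per library.

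Psmb8, Psmb9 and Psmb10, outside the rule, are the immunoproteasome subunits, which interferon induces and which take the places of Psmb5, Psmb6 and Psmb7 in newly built cores. Their values went the other way from that of Psmb5. Psmb9 stood at 5.72, 8.06 and 7.71 FPKM in the controls against 3.95, 3.95 and 4.22 FPKM in the knockouts (log2 fold change -0.68, SE 0.12, unadjusted p = 0.00077, adjusted p = 0.077 in limma). Psmb8 had means of 3.93 ± 0.36 and 2.88 ± 0.23 FPKM and Psmb10 of 20.4 ± 2.18 and 16.3 ± 0.16 FPKM (SD, n = 3), with log2 fold changes of -0.35 and -0.30 and adjusted p of 0.10 and 0.13 in limma. In each of the 3 genes every knockout lay below every control, as in 22.7% of all genes tested. The immunoproteasome sum was 0.273 ± 0.027 times the sum of Psmb5, Psmb6 and Psmb7 in controls and 0.173 ± 0.0051 times in knockouts (SD, n = 3; exact permutation p = 0.10, the smallest possible, and 0.13 adjusted over 8 ratios). The knockout ratio was 0.663 times the control ratio without control 3 and 0.630 times without knockout 3, beside 0.632 times with all libraries. By pair, the ratio of Psmb8 to Psmb5 was 0.104 in controls and 0.055 in knockouts, that of Psmb9 to Psmb6 was 0.146 and 0.084, and that of Psmb10 to Psmb7 was 0.724 and 0.484, each without overlap. The macrophage markers given above were lower in the same libraries, and immune cells are rich in immunoproteasome. Their part in the result was not tested.

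**Figure D4:**
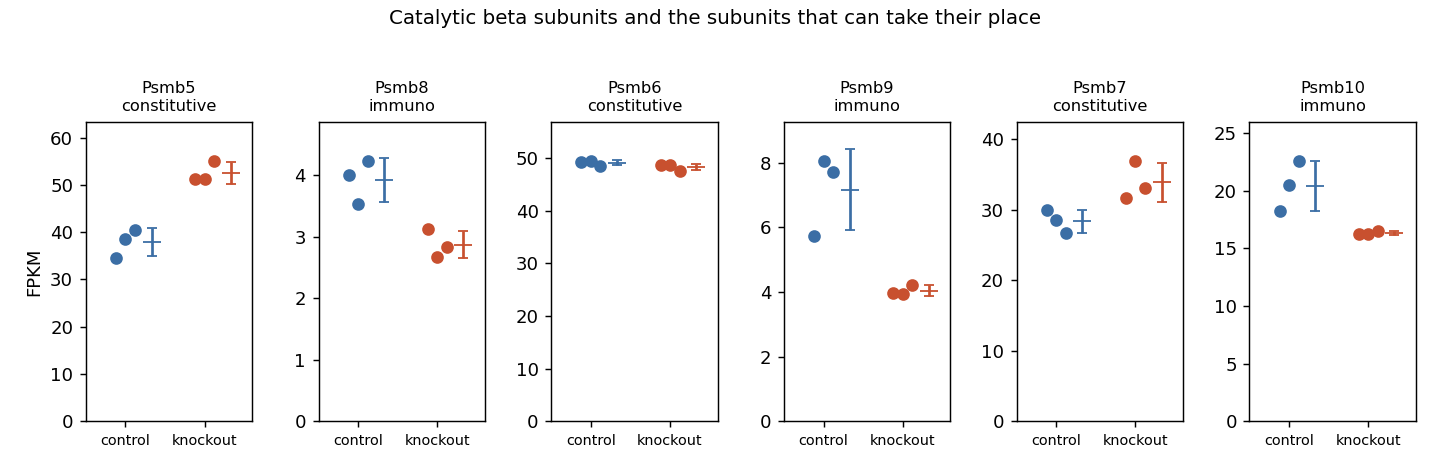
FPKM (y axes, from 0) of the 3 constitutive proteolytic subunit genes and the immunoproteasome subunit gene that can replace each, in the 3 control (blue) and 3 knockout (red) libraries, with the group mean ± SD (n = 3) beside the points. Psmb5 and Psmb7 are higher and Psmb8, Psmb9 and Psmb10 lower in every knockout, and Psmb6 overlaps.

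The base of the 19S particle is a ring of ATPases, Psmc1 to Psmc6, with the scaffold subunits Psmd1 and Psmd2. All 8 base genes were tested, 6 positive and 2 negative, with a median log2 fold change of 0.076. Psmc4 stood at 41.1, 38.6 and 38.4 FPKM in the controls against 44.8, 44.9 and 46.2 FPKM in the knockouts. Its groups did not overlap, with a log2 fold change of 0.20 (SE 0.070, unadjusted p = 0.025, adjusted p = 0.16 in limma). Psmc6 stood at 29.8, 28.3 and 28.1 FPKM in the controls against 30.9, 32.8 and 32.0 FPKM in the knockouts, without overlap (log2 fold change 0.15, adjusted p = 0.25 in limma). Psmc5 overlapped widely, at 63.2, 60.0 and 57.4 FPKM in the controls against 56.6, 59.5 and 61.8 FPKM in the knockouts. Psmc1 had the lowest log2 fold change of the base, -0.09, with means of 68.6 and 64.3 FPKM and overlap. Psmc2, Psmc3, Psmd1 and Psmd2 had values between 0.046 and 0.12, all with overlap.

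The lid holds the scaffold subunits around Psmd14, the enzyme that cuts the ubiquitin chain off the substrate. Of its 8 genes 7 were positive, with a median log2 fold change of 0.14, and 4 lay apart and higher. Over all genes tested, 34.0% were positive and 8.48% lay apart and higher, and 25.6% of the 43 tested members lay apart and higher. Psmd12 stood at 33.7, 29.9 and 28.7 FPKM in the controls against 34.7, 35.7 and 36.3 FPKM in the knockouts. The lowest knockout was close to the highest control, and the log2 fold change was 0.21 (SE 0.083, unadjusted p = 0.041, adjusted p = 0.19 in limma). Psmd8 had nearly identical controls at 54.0, 54.4 and 54.0 FPKM and knockouts spread over 55.8, 64.7 and 61.4 FPKM (log2 fold change 0.16, adjusted p = 0.28 in limma). Psmd11, with means of 13.8 and 15.3 FPKM, and Psmd6, with 29.3 and 32.4 FPKM, also lay apart. Psmd14 itself overlapped, at 32.0, 29.6 and 29.5 FPKM in the controls against 32.3, 30.2 and 36.0 FPKM in the knockouts. Psmd13 was flat, at 22.8, 20.9 and 19.9 FPKM in the controls against 19.9, 20.5 and 22.6 FPKM in the knockouts, and overlaps Sirt3 on the opposite strand. Psmd7 had means of 42.1 and 46.4 FPKM and Psmd3 of 25.5 and 26.7 FPKM, both with overlap. Psmd4, a ubiquitin receptor between base and lid, stood at 60.6, 63.2 and 55.3 FPKM in the controls against 61.8, 61.5 and 63.6 FPKM in the knockouts.

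The alternative caps, the activators Psme1 to Psme4, and the inhibitor Psmf1 gave no gene with groups apart. Of all genes tested, 8.48% lay apart and higher and 22.7% apart and lower. With only 6 genes, a count of 0 does not set this part off from the others. Psme1 and Psme2, interferon-inducible partners that lie 5.91 kb apart on chromosome 14, form the cap that often joins the immunoproteasome. Psme1 stood at 32.1, 33.6 and 35.5 FPKM in the controls against 35.9, 34.5 and 31.5 FPKM in the knockouts, and Psme2 at 34.9, 39.7 and 41.9 FPKM and 37.1, 39.6 and 38.6 FPKM. Their log2 fold changes were 0.0091 (95% interval -0.19 to 0.20) and -0.011 (-0.22 to 0.20), beside the negative values of the immunoproteasome subunits. Psme2b, a near copy of Psme2 that may share its reads, had means of 20.1 and 18.9 FPKM and is uncertain for that reason.

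Psme3, the nuclear activator, stood at 30.3, 25.7 and 26.8 FPKM in the controls against 32.8, 28.5 and 27.7 FPKM in the knockouts. Psme4, the large single-chain activator, stood at 18.5, 15.8 and 15.5 FPKM in the controls against 17.2, 18.5 and 18.6 FPKM in the knockouts. Psmf1 had the lowest fitted value of all 43 genes, at 5.17, 4.47 and 4.86 FPKM in the controls against 4.51, 3.86 and 4.44 FPKM in the knockouts (log2 fold change -0.15, SE 0.089, adjusted p = 0.34 in limma). Its groups overlapped too.

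The 6 tested assembly chaperones also overlapped throughout, and 6 genes are again too few to set this part off from the others. Psmg1 and Psmg2, which pair to start the alpha ring, stood at 12.3, 11.7 and 11.8 FPKM in the controls against 12.7, 15.2 and 12.3 FPKM in the knockouts for Psmg1, and at 7.72, 7.13 and 7.32 FPKM and 7.94, 6.46 and 6.99 FPKM for Psmg2. Psmg4, the partner of Psmg3, stood at 10.1, 10.97 and 11.8 FPKM in the controls against 9.26, 10.6 and 9.64 FPKM in the knockouts (log2 fold change -0.14, adjusted p = 0.35 in limma). Psmg3 itself had 14 to 33 reads per library and was not tested. The chaperones of the base are Psmd5, Psmd9 and Psmd10. Psmd5 stood at 6.24, 5.54 and 5.92 FPKM in the controls against 6.49, 5.74 and 6.05 FPKM in the knockouts, and Psmd9 at 2.93, 2.96 and 3.03 FPKM and 3.16, 2.71 and 2.78 FPKM. Psmd10, also known as gankyrin, spread from 8.41 through 10.7 to 12.9 FPKM in controls and over 12.3, 9.33 and 10.8 FPKM in knockouts. None of these 6 chaperones had an interval that left out 0.

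Psmc3ip met the rule by its symbol and is not a proteasome subunit: it encodes a partner of Psmc3 known for its work in meiotic recombination. It had 6, 13 and 16 reads in controls and 22, 20 and 24 reads in knockouts, without overlap and below the filter.

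The rest of the pathway was described from lists of partners, shuttles, ubiquitin genes and regulators. Of 11 further parts and partners of the particle, 8 were positive and 3 negative with a median log2 fold change of 0.046. At an unadjusted p of 0.05, 1 was lower (9.09%), a smaller share than the 17.1% of all genes tested. This was Uchl5, a deubiquitinase of the 19S particle, at 7.15 ± 1.17 FPKM in the controls against 5.70 ± 0.15 FPKM in the knockouts (SD over 3 libraries; log2 fold change -0.27, adjusted p = 0.20 in limma). Ube3c, a ligase bound to the proteasome, had means of 6.81 and 8.07 FPKM, Akirin2, which carries proteasomes into the nucleus, 10.7 and 11.6 FPKM, and the adaptor Ecpas 13.2 and 12.4 FPKM, all with overlap.

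Among 14 genes of substrate delivery the median was 0.025, and 1 (7.14%, against 17.1% of all genes) was lower at an unadjusted p of 0.05, the ubiquitin shuttle Ubqln2 with means of 11.1 and 8.03 FPKM without overlap (log2 fold change -0.41, adjusted p = 0.15 in limma). Its relatives Ubqln4, with 16.4 and 19.2 FPKM, and Ubqln1, with 56.7 and 62.1 FPKM, had positive values with overlap, as did Rad23b with 24.2 and 26.4 FPKM. Among 6 ubiquitin and activating-enzyme genes 1 was lower by that rule (16.7%, against 17.1% of all genes): the polyubiquitin gene Ubb had means of 300.5 and 250.4 FPKM without overlap (log2 fold change -0.26, unadjusted p = 0.035, adjusted p = 0.18 in limma). The activating enzyme gene Uba1, with 64.9 and 70.3 FPKM, lay higher in every knockout without reaching that p (unadjusted p = 0.19 in limma). Rps27a, a fusion of ubiquitin and a ribosomal protein, had 68.4 and 60.5 FPKM, and Uba6 had 2.02 and 1.81 FPKM.

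A list of 13 tested genes holds transcription factors and, besides them, the enzymes Ngly1, which acts on Nfe2l1, and Aspg, an asparaginase. Of the 13, 3 had lower and 0 higher values with an unadjusted p under 0.05 (23.1% lower, near the 17.1% of all genes tested): Foxo4 (log2 fold change -0.25), Stat3 (-0.37) and Foxo3 (-0.26), each without overlap and with adjusted p of 0.12, 0.13 and 0.18 in limma. Nfe2l1 itself stood at 101, 93.3 and 86.8 FPKM in the controls against 104, 107 and 97.2 FPKM in the knockouts. Its groups overlapped, with a log2 fold change of 0.13 (SE 0.088, adjusted p = 0.38 in limma). Ucp1, the uncoupling protein of thermogenic fat, had means of 1380 and 2594 FPKM with overlapping groups. The 7 thermogenic markers summed to 1489 to 3297 FPKM in controls and 3349 to 5000 FPKM in knockouts, all 7 with positive values, where 34.0% of all genes tested were positive. The 7 general adipocyte markers summed to 11209 to 12290 FPKM and 8576 to 9449 FPKM, all 7 with negative values, as had 7121 of the 10787 genes tested. Of the 7 only Adipoq and Cfd lay apart and lower (28.6%, against 22.7% of all genes). Cfd, the largest part of the sum, had means of 6162 and 4000 FPKM, and Fabp4 had 2539 and 2483 FPKM. Whether the share of thermogenic adipocytes bears on the proteasome values was not tested.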

How the data were processed

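The authors deposited 1 table of FPKM values per gene and library. Per the submitters' processing notes it was made with cutadapt, HISAT2 and HTSeq on build mm10. The kit was stranded per the labels' protocols. Tool versions, the annotation and the strand setting of the counting: not given in the sources used here. FPKM times merged exon length (GENCODE M21) came out whole to a tolerance of 0.05 in 97.9 to 98.1% of the values of 50 reads or fewer, and these products served as recovered reads. Of 21936 rows, 36 that repeat a symbol were left out. Genes averaging 1 FPKM or more in controls or knockouts entered limma 3.58.1 (R 4.3.3), which fitted log2(FPKM + 1) on genotype alone with its trend option and Benjamini-Hochberg adjustment over all 10787 genes. The fit was tested on simulated data. Fold changes on this scale understate those of low genes. An exact test of 3 against 3 cannot go below p = 0.10.

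The members, lists and tests were chosen with earlier results of these data known. Genes given with every library's value are Psmb5, Psmb6 and Psmb7, Psmd4 and Psmd14, Psme1 to Psme4 and Psmf1 (not Psme2b), the tested assembly chaperones, and in each alpha, beta, base and lid part the members with the 2 smallest and the largest p. From each other list up to 4 genes with the smallest p, and the immunoproteasome subunits, are named. Library values of Nfe2l1, Psmb9 and Psmc3ip were added outside this rule, after their values were seen. The labels give replicate numbers but no shared source for them. Alternatives changed the pseudocount (0.1), the filter, the scaling, the tool (voom) and the block, or left out a library.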

Additional observations from a re-analysis of the deposited data

How the results depend on the processing

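In all 13 alternatives 0 proteasome genes passed an adjusted p of 0.05 and 0 were lower at an unadjusted p of 0.05. The count of all genes past an adjusted p of 0.05, 1 as reported, was 0 without a filter, 2 with a filter at 5 FPKM, 0 with voom on recovered reads and 0 to 5 when a library was left out. The count of proteasome genes higher at an unadjusted p of 0.05, 5 of 43 as reported, was 14 under median-of-ratios scaling. It was 13 under upper-quartile scaling and 1 to 6 when a library was left out. Without a filter all 47 members were fitted, and 8 were higher by that rule, Psmc3ip among them, against 843 of 16872 genes. The member median of 0.066 was 0.16 under median-of-ratios and 0.15 under upper-quartile scaling, and 0.044 to 0.10 when a library was left out. Groups apart and higher, 11 as reported, were 16 under either scaling, 11 without control replicate 3 and 13 without knockout replicate 3, which are alternatives chosen after seeing the data. The 16 are 37.2% of the 43, against 16.5% of all genes under median-of-ratios and 15.2% under upper-quartile scaling. A replicate block (the replicate number as a term) left 2 proteasome genes, Psmb5 and Psmb7, higher at that unadjusted p (4.65%, below the 5.92% of all genes), and 0 of all genes past the adjusted one. Deviations from the group means correlated at 0.065, 0.027 and -0.25 between same-numbered samples, and at -0.23 to 0.18 between the others. With 3 samples per group such deviations are bound to each other, so these values cannot decide if the numbers pair the samples.

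Of the 43 fitted values 25 kept their sign in every alternative, among them 23 of the 30 positive ones. Under median-of-ratios and upper-quartile scaling the log2 fold change became positive for Psme2 (0.085 and 0.070), Psmd9 (0.039 and 0.027), Psmg2 (0.038 and 0.025), Psma5 (0.086 and 0.071), Psma7 (0.017 and 0.0021), Psmb1 (0.049 and 0.034), Psmb6 (0.074 and 0.059), Psmc5 (0.075 and 0.060) and Psmd13 (0.080 and 0.065). Under median-of-ratios scaling alone it did for Psme2b (0.0079), Psmc1 (0.0052) and Ecpas (0.0070). With voom Psmb4 had -0.00067. When a library was left out the range crossed 0 for Psme1 (-0.031 to 0.062), Psme2 (-0.085 to 0.044), Psmd10 (-0.12 to 0.16), Psmd5 (-0.00049 to 0.076), Psmg2 (-0.12 to 0.012), Psma4 (-0.025 to 0.051), Psma5 (-0.12 to 0.058), Psmb4 (-0.037 to 0.032), Psmc5 (-0.056 to 0.013), Psmd1 (-0.0091 to 0.10), Psmd13 (-0.065 to 0.037) and Psmd3 (-0.014 to 0.17). Each scaling divides all genes of a library by the same factor, so its changes are a shift that these genes share with the others. Under median-of-ratios scaling the median of all genes tested moved from -0.082 to -0.0011, and that of the members from 0.066 to 0.16. The cause of the changes with voom or with a library left out was not tested. Psmg4 and Psmc3ip rest on the fewest reads among the genes given with differences.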
